A study of Mus musculus with 19 samples.

Results

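The Cyp4 genes encode cytochrome P450 enzymes that hydroxylate fatty acids and related lipids at the omega end, the far end of the carbon chain. 10 of them were examined in mouse liver out of 51826 gene entries: the Cyp4a genes Cyp4a10, Cyp4a14, Cyp4a31, Cyp4a32, Cyp4a12a and Cyp4a12b, the Cyp4f genes Cyp4f13, Cyp4f14 and Cyp4f15, and Cyp4v3. They were found by gene symbol, and the family was chosen by its values: Cyp4a14 and Cyp4a10 had shown the largest falls from lactation to involution in these same mice. That comparison is therefore given below as a description only.

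In liver, omega-hydroxylation starts a side route of fatty acid breakdown, in which the hydroxylated acid is oxidized by alcohol and aldehyde dehydrogenases to a dicarboxylic acid that peroxisomes then shorten. Transcription of Cyp4a10 and Cyp4a14 is a textbook readout of PPARα (Ppara), the fatty acid-sensing nuclear receptor that acts as a pair with a retinoid X receptor, and these genes are induced by fasting. Cyp4a12a and Cyp4a12b are known as male-predominant genes, the Cyp4f enzymes also act on leukotrienes and other eicosanoids, and Cyp4v3 is the mouse counterpart of human CYP4V2.

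Liver RNA was sequenced from 19 female Balb/c mice (Balbc in the labels), all labelled as aged 12 weeks and each contributing 1 library: 7 nulliparous mice, which had not borne young, 6 mice at lactation day 10, and 6 mice at involution day 6, after the young were weaned. No transgene, deletion or drug was part of the design, and the question was how the maternal liver changes across reproductive stages. The study drew its mice from 2 suppliers, Charles River Laboratories and The Jackson Laboratory, and the labels do not say which mouse came from which. Values are TPM (relative transcript abundance), which are scaled for gene length and to the same total in each mouse, so they keep no record of sequencing depth and no counting interval could be given.

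The mice carry animal numbers in their names, and these fall into 2 ranges that bear on every result here. Numbers under 200 belonged to 3 nulliparous mice (NUL_1, NUL_4 and NUL_13) and 3 lactating mice (LAC_36, LAC_102 and LAC_133). The rest had numbers from 200 up: 4 nulliparous mice (NUL_220, NUL_221, NUL_226 and NUL_227), 3 lactating mice (LAC_200, LAC_213 and LAC_240) and all 6 involution mice (ID6_201, ID6_209, ID6_216, ID6_218, ID6_230 and ID6_232). The labels name no batch, and no involution mouse was numbered under 200, so stage and range cannot be told apart when involution mice are set against lower-numbered mice. Values are therefore given within each range beside those over all mice.

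Hepatocyte markers were high in every mouse, and low levels of markers of some other tissues were present. Summed TPM of 7 hepatocyte markers ran from 55964 to 90238 in nulliparous, 96987 to 146321 in lactating and 76420 to 106661 in involution mice. Alb alone had means of 55208, 100197 and 62534 TPM at these stages. The means of Ttr and Apob were lower, and those of the other hepatocyte markers higher, in lactating than in nulliparous mice. The 5 kidney markers, from the other organ known for Cyp4a expression, summed to at most 0.05 TPM, with Slc12a1 and Kap listed at 0 in every mouse. The 5 exocrine pancreas markers summed to 22.05 to 41.76 TPM in nulliparous, 4.88 to 31.38 in lactating and 17.13 to 21.07 in involution mice. Cela1 had a lower mean in lactating (8.415 TPM) than in nulliparous mice (29.8 TPM). Cpa1, Prss2, Pnlip and Ctrb1 had higher means in lactating mice. Ctrb1 was at 0.03, 5.3 and 15.96 TPM in lower-numbered lactating mice, and reached 0.77 TPM in nulliparous and 0.96 TPM in involution mice. Adipocyte markers summed to at most 18.25 TPM in nulliparous, 2.62 in lactating and 19.1 in involution mice. Markers of other cells moved with stage as well. The summed level of 6 Kupffer cell markers was 149 to 286 TPM in nulliparous, 96.5 to 204 in lactation and 329 to 471 in involution mice. That of 5 red blood cell markers was 1144 to 2407, 1331 to 3336 and 197 to 847 TPM. In bulk liver, fewer cells of a type and less RNA per cell cannot be told apart, and the part of these cell types in the results below was not tested.

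Cyp4a10, a fatty acid omega-hydroxylase, differed both between ranges of animal number and between stages. In the lower-numbered nulliparous mice it stood at 593, 794 and 964 TPM, and in the higher-numbered ones at 42.7, 46.9, 48.1 and 51.5 TPM. In lactation it stood at 1527, 1559 and 1610 TPM in the lower-numbered mice and at 217, 246 and 275 TPM in the higher-numbered ones. Involution mice had a lowest value of 9.92, a median of 15.2 and a highest value of 50.2 TPM. Within each range every lactating mouse was above every nulliparous mouse, but the higher-numbered lactating mice lay below all 3 lower-numbered nulliparous mice. 5 of the 6 involution mice were below every other mouse, and the remaining one, ID6_232, lay among the higher-numbered nulliparous mice.

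Cyp4a14, its neighbour on chromosome 4 and likewise an omega-hydroxylase, was close to Cyp4a10 in level in the lower-numbered mice. Lower-numbered nulliparous mice had 620, 798 and 867 TPM, and higher-numbered ones 63.3, 88.1, 96.7 and 103 TPM. In lactation the lower-numbered mice had 1274, 1370 and 1569 TPM, and the higher-numbered ones 47.6, 84.1 and 159 TPM. The 3 higher-numbered lactating mice thus fell 1 below, 1 inside and 1 above the values of the 4 higher-numbered nulliparous mice. Involution mice had a lowest value of 3.69, a median of 7.66 and a highest value of 27.7 TPM, below every nulliparous and lactating mouse.

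**Figure D1:**
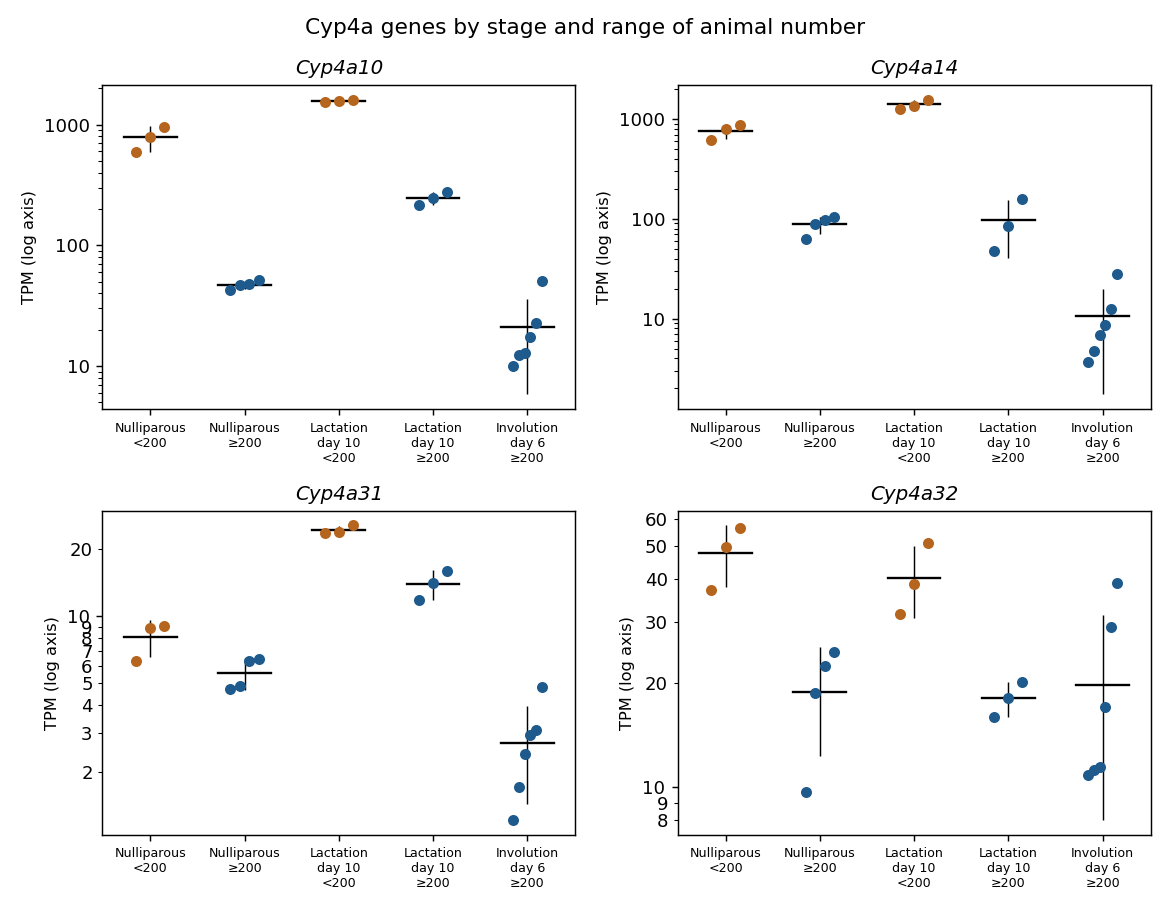
TPM on log axes of Cyp4a10, Cyp4a14, Cyp4a31 and Cyp4a32 in each mouse (points) by stage and range of animal number (brown, under 200; blue, 200 and above), with the mean (horizontal line) and SD (vertical line). Cyp4a10 in lower-numbered nulliparous mice, 593 to 964 TPM, lies above higher-numbered lactating mice, 217 to 275 TPM, and involution mice are lowest for Cyp4a14 and, but for 1 mouse each, for Cyp4a10 and Cyp4a31.

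Cyp4a31 was expressed at a low level but separated the stages. It stood at 6.32, 8.90 and 9.03 TPM in the lower-numbered and at 4.73, 4.86, 6.32 and 6.43 TPM in the higher-numbered nulliparous mice. Lactating mice had 23.7, 23.97 and 25.6 TPM in the lower range and 11.8, 14.2 and 15.99 TPM in the higher range, so all 6 were above all 7 nulliparous mice. Involution mice ran from 1.22 through a median of 2.67 to 4.82 TPM, and 5 of the 6 were below every nulliparous mouse.

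Cyp4a32 differed between ranges of animal number and hardly between stages. Nulliparous mice had 37.1, 49.6 and 56.2 TPM in the lower range and 9.69, 18.7, 22.4 and 24.7 TPM in the higher range. Lactating mice had 31.8, 38.7 and 50.8 TPM and 15.9, 18.2 and 20.2 TPM in the same order, and involution mice ran from 10.8 through a median of 14.2 to 38.9 TPM. The stages overlapped within each range, and the ranges did not overlap within either stage. Cyp4a12a was above 0.1 TPM in the 6 lower-numbered mice, at 0.33 to 1.45 TPM, and at or below 0.10 TPM in the other 13. Cyp4a12b was listed at 0.04 TPM or less in every mouse and was not tested.

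The Cyp4a genes are close paralogs, and reads that fit more than 1 of them were apportioned by RSEM, the authors' quantifier, in a way that cannot be checked from TPM. The 6 Cyp4a genes lie within 1 stretch of chromosome 4 (GRCm38), in the order Cyp4a12a (chr4:115299046-115332815, plus strand), Cyp4a12b, Cyp4a14 (chr4:115486200-115496142, minus strand), Cyp4a10 (chr4:115518264-115533649, plus strand), Cyp4a31 and Cyp4a32 (chr4:115600969-115621602, plus strand). Over their aligned transcripts Cyp4a10 was 97.2% identical to Cyp4a32, 95.7% to Cyp4a31 and 77.7% to Cyp4a14, and Cyp4a12a was 98.3% identical to Cyp4a12b. Of all 150-base stretches of the Cyp4a10 transcript, 4.34% occurred unchanged in another gene's transcript, against 7.97% for Cyp4a32, 25.6% for Cyp4a12a and none for Cyp4a14. The sum over the 6 genes depends less on how reads were divided among them, but TPM are scaled by length and the transcripts differ in length (1530 bases for Cyp4a32, 2109 for Cyp4a10 and 2509 for Cyp4a31), so it is not free of that division.

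The Cyp4a sum was 1602 ± 308 TPM (SD, n = 3) in lower-numbered and 160 ± 17.7 TPM (SD, n = 4) in higher-numbered nulliparous mice. It was 3036 ± 202 TPM (SD, n = 3) and 375 ± 75.7 TPM (SD, n = 3) in the corresponding lactating mice, and 53.98 ± 35.9 TPM (SD, n = 6) in involution mice. Lower-numbered mice thus had a mean 10.0-fold higher without and 8.09-fold higher with lactation, whereas lactating mice exceeded nulliparous mice 1.89-fold in the lower and 2.35-fold in the higher range. Over all mice the sum was 778 ± 791 TPM (SD, n = 7) in nulliparous and 1705 ± 1464 TPM (SD, n = 6) in lactating mice, with an SD about as large as the mean.

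Which members made up the family's RNA changed with it. The Cyp4a genes supplied 75.2% of the summed TPM of all 10 members in lower-numbered and 26.9% in higher-numbered nulliparous mice, 86.0% and 43.2% in the corresponding lactating mice, and 9.42% in involution mice. Cyp4a10 and Cyp4a14 supplied 96.3%, 84.6%, 97.8%, 91.3% and 57.0% of the Cyp4a sum in those 5 sets. At involution Cyp4a32, at a mean of 19.7 TPM, was thus level with Cyp4a10, at 20.9 TPM. The most abundant member there was Cyp4f14, at 304 ± 47.1 TPM (SD, n = 6), followed by Cyp4f15.

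The order of the members by mean TPM changed as well. In lower-numbered nulliparous and lactating mice Cyp4a10 and Cyp4a14 led, with overlapping values, and Cyp4f14, Cyp4f15, Cyp4v3, Cyp4f13, Cyp4a32 and Cyp4a31 followed in that order. In higher-numbered nulliparous mice Cyp4f14 led, Cyp4a14 and Cyp4f15 overlapped behind it, and Cyp4a10 ranked below Cyp4v3 and Cyp4f13 with no overlap. In higher-numbered lactating mice Cyp4a10 was second to Cyp4f14 (217 to 275 against 304 to 333 TPM), and Cyp4a14 overlapped Cyp4f15, Cyp4f13 and Cyp4v3. At involution Cyp4f14, Cyp4f15, Cyp4v3 and Cyp4f13 led, with Cyp4v3 (60.7 to 70.8 TPM) and Cyp4f13 (59.8 to 66.4 TPM) overlapping, and Cyp4a10, Cyp4a32 and Cyp4a14 overlapped below them.

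The ratio of Cyp4a10 to Cyp4a14 differed among the sets. It was 0.956 to 1.11 in lower-numbered nulliparous and 1.03 to 1.198 in lower-numbered lactating mice. In the higher range it was 0.441 to 0.760 in nulliparous mice and 1.55, 3.27 and 4.57 in lactating mice, and it was 1.39 to 2.74 in involution mice. Cyp4a14 was thus the more abundant of the pair in the 4 higher-numbered nulliparous mice and Cyp4a10 in the higher-numbered lactating and involution mice, while the ratio in the lower-numbered mice stayed near 1.

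**Figure D2:**
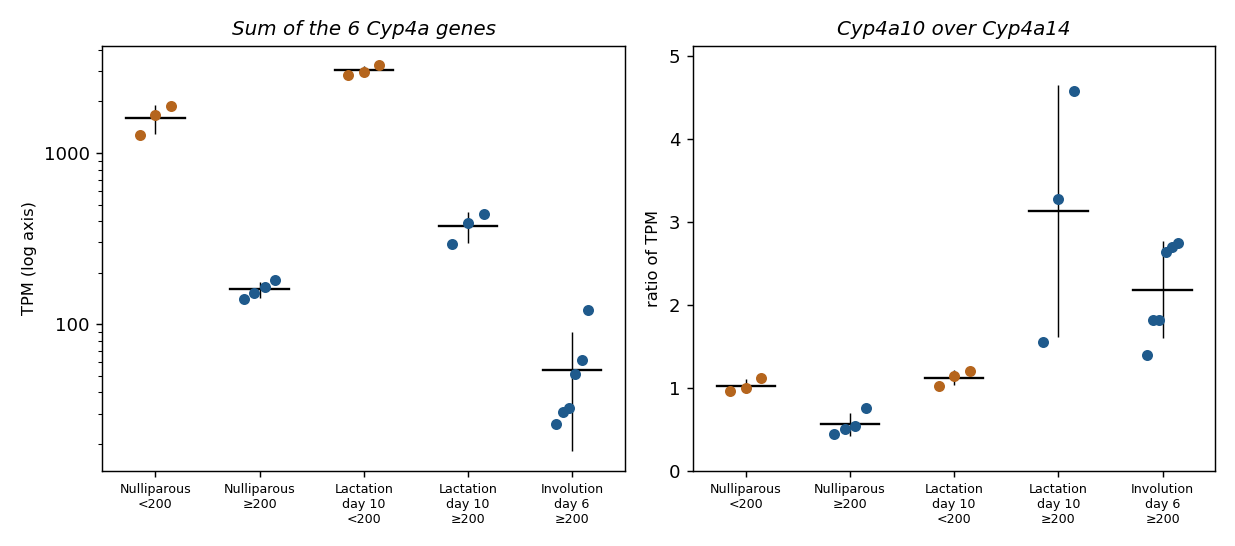
Left, sum of the 6 Cyp4a genes in TPM on a log axis, and right, ratio of Cyp4a10 to Cyp4a14 TPM, in each mouse by stage and range of animal number (brown, under 200; blue, 200 and above), with mean and SD. Within the higher range the mean sum is 160 TPM in nulliparous, 375 TPM in lactating and 53.98 TPM in involution mice, and the ratio is below 1 in all 4 higher-numbered nulliparous mice and above 1 in higher-numbered lactating and involution mice.

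The Cyp4f genes and Cyp4v3 stayed within narrower limits. Cyp4f13 (chr17:32924688-32947402, minus strand) ranged from 52.3 to 66.4 TPM over all 19 mice. It was at 57.5 ± 2.89 TPM (SD, n = 7) in nulliparous, 54.8 ± 2.24 TPM (SD, n = 6) in lactating and 63.4 ± 3.06 TPM (SD, n = 6) in involution mice. In TPM as deposited every involution mouse was above every lactating mouse. The size factors of median-ratio scaling were 0.979 to 1.14 in involution and 0.903 to 1.005 in lactating mice. Once values are divided by them the 2 groups overlap. The share of all genes without overlap was not counted. Cyp4f14 (chr17:32905070-32917342, minus strand), known as a leukotriene B4 hydroxylase, was the highest Cyp4f member. It ran from 200.8 to 286 TPM in nulliparous, from 243 to 333 TPM in lactating and from 230 to 360 TPM in involution mice, so the stages overlapped. Its 3 higher-numbered lactating mice, at 304, 329 and 333 TPM, were above the lower-numbered ones, at 243, 250 and 259 TPM.

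Cyp4f15 and Cyp4v3 were lower in the higher range. Cyp4f15 (chr17:32685627-32703352, plus strand) had 111, 121 and 131 TPM in lower-numbered and 75.1, 83.0, 83.0 and 85.0 TPM in higher-numbered nulliparous mice. Lactating mice had 107, 120 and 121 TPM and 54.2, 57.5 and 65.1 TPM in the same order, and involution mice ran from 75.8 through a median of 84.5 to 99.96 TPM. The higher-numbered lactating mice were thus the lowest of all 19. Cyp4v3 (chr8:45304944-45333216, minus strand) had 99.7, 100.4 and 112 TPM in lower-numbered and 61.8, 62.1, 65.7 and 65.8 TPM in higher-numbered nulliparous mice. Lactating mice had 69.8, 72.7 and 73.5 TPM and 50.1, 51.7 and 52.0 TPM, and involution mice 60.7, a median of 66.8 and 70.8 TPM, so that within each range lactating mice lay below nulliparous ones.

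**Figure D3:**
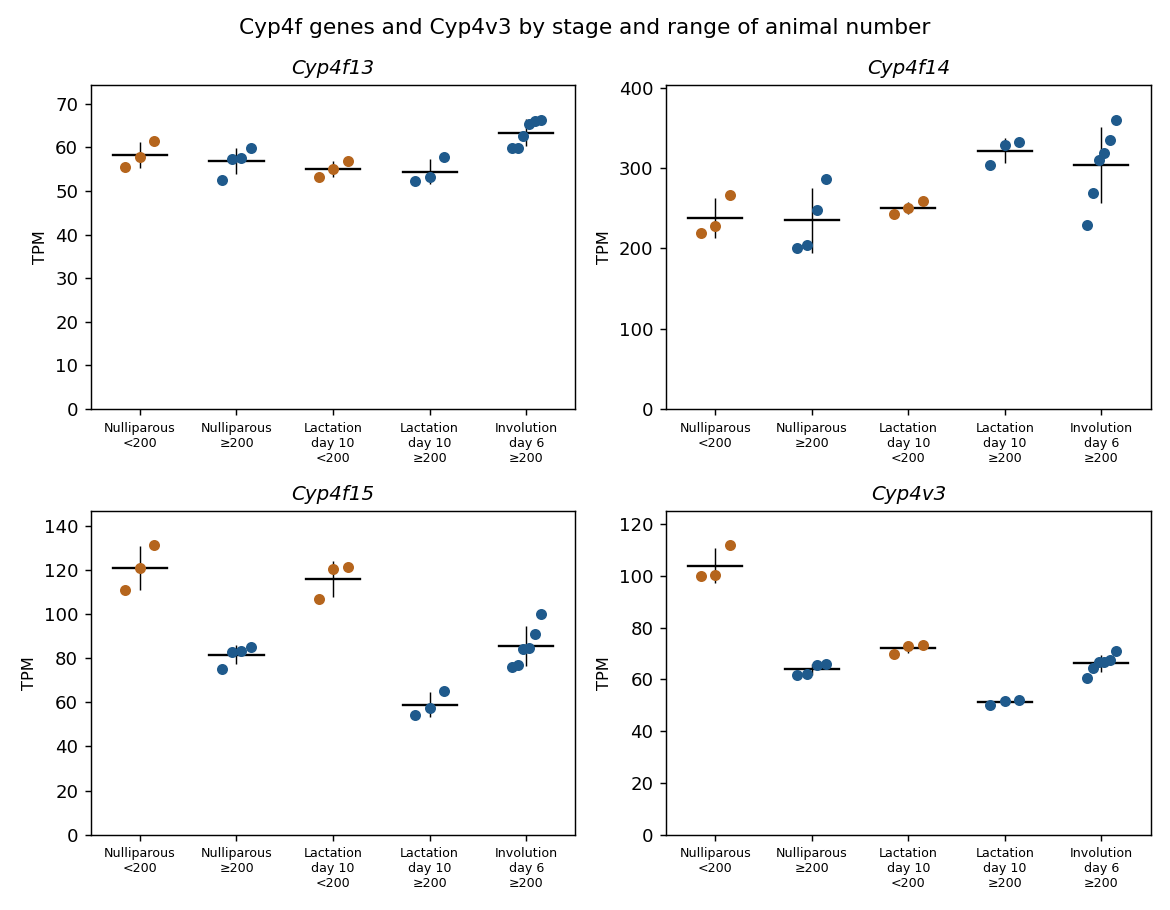
TPM of Cyp4f13, Cyp4f14, Cyp4f15 and Cyp4v3 in each mouse (points) by stage and range of animal number (brown, under 200; blue, 200 and above), with mean (horizontal line) and SD (vertical line) and axes starting at 0. Cyp4f13 stays between 52.3 and 66.4 TPM, whereas Cyp4f15 and Cyp4v3 are lowest in higher-numbered lactating mice, at 54.2 to 65.1 and 50.1 to 52.0 TPM.

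Stages and ranges were compared on log2(TPM + 1) with limma's trend method over 16230 genes, and a gene passed at an adjusted p below 0.05. 9 of the 10 members were tested. Cyp4a12a passed the filter on low values through the lower-numbered mice. All log2 differences below are on this scale, which understates the change of low genes such as Cyp4a12a and Cyp4a31. The stage and range comparisons share mice with one another and with the comparison that picked the family. They are therefore independent neither of each other nor of that choice.

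Between ranges of animal number, Cyp4a12a is given by its values alone, since it entered the fit through the lower-numbered mice. Of the 8 other tested members, 6 were lower in the 7 higher-numbered than in the 6 lower-numbered nulliparous and lactating mice, with stage in the fit. These lactating mice also entered the contrast that picked the family, in which every involution mouse was higher-numbered. The p-values of Cyp4a14 and Cyp4a10 between ranges are therefore not independent of that choice. Of all genes tested, 9.11% passed as lower and 16.5% as higher. Cyp4a14 was lower by a log2 difference of -3.53 (SE 0.25, adjusted p = 1.09e-06) and Cyp4a10 by -3.38 (SE 0.21, adjusted p = 3.29e-07). Cyp4a32 followed at -1.23 (SE 0.19, adjusted p = 0.000573) and then Cyp4a31 at -0.61 (SE 0.11, adjusted p = 0.00153). Outside the Cyp4a group, Cyp4f15 was lower by -0.75 (SE 0.08, adjusted p = 3.84e-05) and Cyp4v3 by -0.60 (SE 0.05, adjusted p = 4.11e-06). Cyp4f13, at -0.03 (SE 0.05, adjusted p = 0.707), and Cyp4f14, at 0.15 (SE 0.10, adjusted p = 0.277), did not pass. The median of these 8 members was -0.68, against 0.05 over all genes tested. Kupffer cell markers also differed between the ranges, 5 of 6 being higher in the higher-numbered mice.

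Sequence upstream of the start site was available from RefSeq for 5 members: Cyp4a32, Cyp4f13, Cyp4f14, Cyp4f15 and Cyp4v3. It is shown for Cyp4a32, Cyp4f15 and Cyp4v3, the 3 of them that were lower in the higher range, from 250 to 61 bases before the start and 5′ to 3′ on each gene's strand (GRCm38.p6): chr4:115600688-115600877, plus strand, for Cyp4a32, chr17:32685409-32685598, plus strand, for Cyp4f15, and chr8:45333224-45333413, minus strand, for Cyp4v3. The core GGTCA of the hormone response element, searched on both strands and read as TGACC on the other, is in capitals.
Cyp4a32: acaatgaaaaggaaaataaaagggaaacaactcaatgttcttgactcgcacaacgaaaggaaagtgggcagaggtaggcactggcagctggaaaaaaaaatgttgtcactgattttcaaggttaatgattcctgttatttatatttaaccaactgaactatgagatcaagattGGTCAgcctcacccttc
Cyp4f15: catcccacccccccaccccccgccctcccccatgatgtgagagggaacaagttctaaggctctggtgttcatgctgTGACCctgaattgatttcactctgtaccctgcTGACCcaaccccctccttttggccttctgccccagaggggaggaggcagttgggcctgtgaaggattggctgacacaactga
Cyp4v3: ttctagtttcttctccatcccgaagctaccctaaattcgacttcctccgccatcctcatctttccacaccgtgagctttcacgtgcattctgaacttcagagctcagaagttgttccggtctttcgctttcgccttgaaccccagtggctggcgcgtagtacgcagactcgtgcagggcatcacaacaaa
The Cyp4a32 window held the core 1 time, the Cyp4f15 window 2 times and the Cyp4v3 window not at all, and 28.2% of 32851 mouse promoter windows of that length held it. The longer half-site AGGTCA, which contains the core, was in 10.8% of windows and in none of these 3. The spaced direct repeat AGGTCANAGGTCA, the form a PPARα pair is known to bind, was in 0.0213% of windows and likewise in none of the 3. A match of letters is a description of the sequence and not a bound site.

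The genes around omega-oxidation were examined as lists, beside the 9.11% lower and 16.5% higher of all genes in this fit. Of 7 partners of the route, 4 were lower in the higher-numbered mice: Por, the P450 reductase that hands electrons to every Cyp4 enzyme (log2 difference -0.46), Cyb5a, another electron donor (-0.68), Adh4, an alcohol dehydrogenase (-0.49), and Aldh3a2, the fatty aldehyde dehydrogenase (-0.90, limma adjusted p = 8.88e-06). Of 18 tested genes of peroxisomal oxidation, 12 were lower, led by the thioesterase Acot3 (-1.49), the thiolase Acaa1b (-1.37) and the bifunctional enzyme Ehhadh (-1.29). Ehhadh stood at 395 ± 51.9 TPM (SD, n = 3) in lower-numbered and 181 ± 16.4 TPM (SD, n = 4) in higher-numbered nulliparous mice. Of 22 other PPARα targets, 13 were lower, with the thioesterase Acot1 at -3.41 (SE 0.16, adjusted p = 1.87e-08), the pantetheinase Vnn1 at -2.09, the fatty acid transporter Cd36 at -1.66 and the mitochondrial thioesterase Acot2 at -1.30. The median log2 difference was -0.46 for the partners, -0.44 for the peroxisomal genes and -0.29 for the other targets. Among 13 genes of PPARs and partners 4 were higher, including Ppard (1.57) and Rxra (0.28), and 1, Rxrg, was lower (-0.50). Ppara did not pass, with means of 32.3 and 30.3 TPM in lower- and higher-numbered nulliparous and 24.1 and 22.2 TPM in lactating mice.

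**Figure D4:**
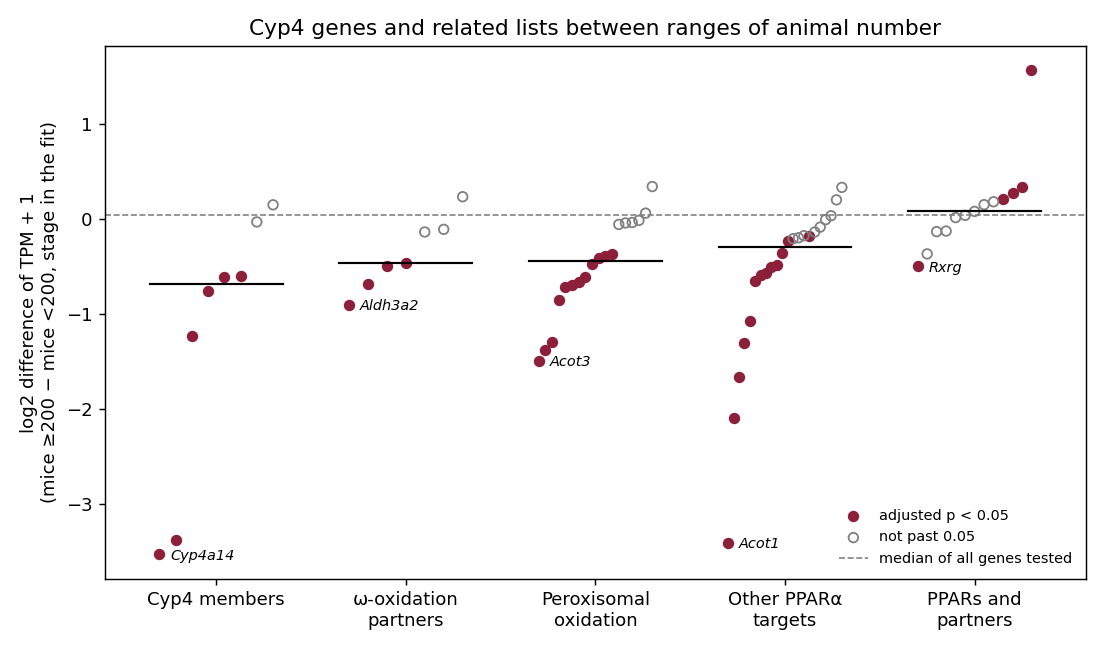
Log2 difference of TPM + 1 between mice numbered 200 and above and those under 200 (nulliparous and lactating, stage in the fit) for each tested gene of 5 lists (Cyp4a12a left out), with filled points for an adjusted p below 0.05, open points otherwise, a bar for each list's median and a dashed line for the median of all genes. Cyp4a14 (-3.53), Cyp4a10 and Acot1 (-3.41) lie far below the rest, and most PPARs and partners lie near or above 0.

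Lactation day 10 was then compared with nulliparous. Over all mice Cyp4a31 was the one member of 9 that passed, higher by a log2 difference of 1.37 (SE 0.22, adjusted p = 0.000546), where 2.72% of all genes tested passed as higher and 6.49% as lower. Cyp4a10 had a larger difference of 1.97 with a much larger error (SE 0.82, adjusted p = 0.150), and Cyp4a14 stood at 0.66 (SE 0.88, adjusted p = 0.705). With the range of animal number as a covariate 4 members passed: Cyp4a10 at 1.73 (SE 0.29, adjusted p = 0.000577) and Cyp4a31 at 1.33 (adjusted p = 5.07e-05) were higher, and Cyp4v3 at -0.41 (adjusted p = 2.73e-05) and Cyp4f15 at -0.27 (adjusted p = 0.0291) lower. In that fit 5.5% of all genes passed as higher and 10.2% as lower.

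Fits within each range gave the following. Cyp4a10 was higher in lactation by 1.03 (SE 0.17, adjusted p = 0.0423) in the lower range and by 2.35 (SE 0.39, adjusted p = 0.00381) in the higher range. Cyp4a31 was higher by 1.498 (SE 0.14, adjusted p = 0.0179) and 1.19 (SE 0.26, adjusted p = 0.0160), and Cyp4v3 was lower by -0.52 (SE 0.07, adjusted p = 0.0267) and -0.31 (SE 0.06, adjusted p = 0.00726). Cyp4a14 passed in the lower range, at 0.89 (SE 0.15, adjusted p = 0.0401), and was at -0.01 (SE 0.53, adjusted p = 1) in the higher. Cyp4f15 passed in the higher range, at -0.46 (SE 0.10, adjusted p = 0.0118), and was at -0.06 (SE 0.09, adjusted p = 0.728) in the lower. In the lower range 3 members were higher and 1 lower, against 1.4% and 1.89% of all genes, and in the higher range 2 were higher and 2 lower, against 2.61% and 4.47%. Cyp4a32, Cyp4f13 and Cyp4f14 did not pass in either range or over all mice. Cyp4f14 came nearest, at 0.47 (SE 0.15, adjusted p = 0.0855) in the higher range.

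**Figure D5:**
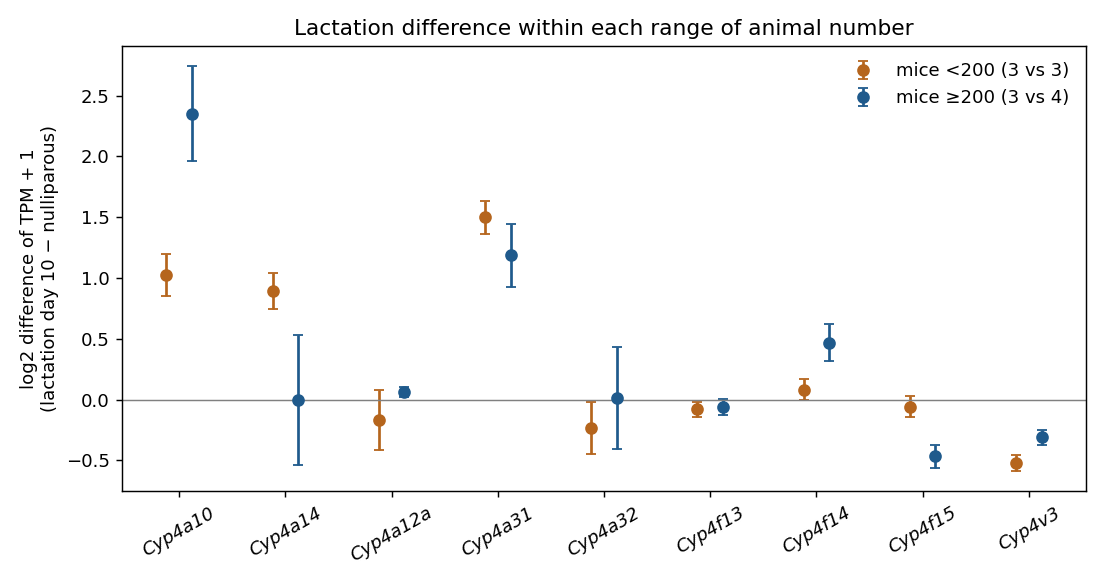
Log2 difference of TPM + 1 between lactation day 10 and nulliparous mice (points) with its standard error (bars) for the 9 tested members, fitted within mice numbered under 200 (brown, 3 against 3) and 200 and above (blue, 3 against 4). Cyp4a10 is at 1.03 and 2.35 and Cyp4a31 at 1.498 and 1.19, whereas Cyp4a14 is at 0.89 and -0.01.

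Whether the lactation difference itself differed between the ranges was tested with an interaction term. Cyp4a10 was the one member that passed, its lactation difference being larger in the higher-numbered mice by 1.33 (SE 0.20, adjusted p = 0.0292). Of all genes tested 0.0493% passed as higher and 0.0616% as lower. The call was not stable: leaving out each of the 13 mice in turn gave log2 differences of 1.16 to 1.51 and adjusted p-values of 0.00792 to 0.0971, and it was lost in 10 of the 13 fits and kept without NUL_1, NUL_13 or NUL_221. Cyp4a14, at -0.90 (SE 0.46, adjusted p = 0.416), and Cyp4f15, at -0.41 (SE 0.12, adjusted p = 0.217), did not pass, so their lactation differences were not shown to differ between ranges.

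The same lists were examined in lactation, beside the 2.72% higher and 6.49% lower of all genes over all mice, and 2.61% and 4.47% in the higher range. Of the omega-oxidation partners Por was higher (0.56, limma adjusted p = 0.0387 over all mice), but at 0.23 with an adjusted p of 0.449 among higher-numbered mice alone, and Adh4 was lower (-0.79). Of the 18 peroxisomal genes 3 passed, all lower: Crot, a carnitine acyltransferase (-0.92), Nudt7 (-0.83) and the sterol carrier Scp2 (-0.46). Of the 22 other PPARα targets 4 passed, all lower, led by Plin2, a lipid droplet coat protein (-0.65), Cpt1a, the gate of mitochondrial fatty acid oxidation (-0.59), and Mgll (-0.47). Among higher-numbered mice alone 7 of these 22 were lower and 1 higher. Among PPARs and partners Pparg passed, lower by -0.40, but was at -0.24 (adjusted p = 0.449) among higher-numbered mice. Of the 6 Kupffer cell markers 5 were lower in lactation.

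Involution day 6 was compared with nulliparous over all mice and within the higher range. Over all mice 3 of the 9 members passed, all lower, where 0.912% of all genes passed as lower and 3.44% as higher. Cyp4a14 was lower by -4.52 (SE 0.88, adjusted p = 0.00978), Cyp4a10 by -3.07 (SE 0.82, adjusted p = 0.0418) and Cyp4a31 by -1.09 (SE 0.22, adjusted p = 0.0109). The low involution values of Cyp4a14 and Cyp4a10 also picked the family. Their p-values in this paragraph are therefore not independent of that choice and are no separate support. The Cyp4a10 call was lost without NUL_1, NUL_4 or NUL_13 or any single involution mouse (adjusted p = 0.0539 to 0.0966), and under 4 other settings, from robust moderation (0.0522) to no filter on low values (0.0793). Against the 4 higher-numbered nulliparous mice alone Cyp4a14 still passed, at -3.19 (SE 0.45, adjusted p = 0.00675), with a mean 8.24-fold lower. Cyp4a10 was then at -1.35 (SE 0.33, adjusted p = 0.0893) and Cyp4a31 at -0.89 (SE 0.22, adjusted p = 0.0920), with means 2.26-fold and 2.07-fold lower, and neither passed. In that fit 0.308% of all genes passed as lower and 0.511% as higher. With the range as a covariate all 3 passed, Cyp4a14 at -3.01 (adjusted p = 0.000275), Cyp4a10 at -1.62 (adjusted p = 0.0125) and Cyp4a31 at -0.83 (adjusted p = 0.0278), where 0.499% of all genes passed as lower and 1.07% as higher. The covariate fit takes the range difference from nulliparous and lactating mice and assumes it is the same in every stage. No involution mouse was lower-numbered, so that assumption could not be checked at involution.

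The other members did not pass at involution. Over all mice Cyp4a32 was at -0.62 (SE 0.39, adjusted p = 0.328) and Cyp4a12a at -0.40 (SE 0.21, adjusted p = 0.232), the latter against nulliparous values that were above 0.1 TPM in the lower-numbered mice only. Within the higher range Cyp4a32 was at a log2 difference of -0.04 (SE 0.36), Cyp4f15 at 0.06 (SE 0.08), Cyp4v3 at 0.05 (SE 0.05) and Cyp4f13 at 0.15 (SE 0.05), and none of them passed in limma (adjusted p = 0.986, 0.827, 0.760 and 0.258). Cyp4f14 was at 0.37 (SE 0.13, adjusted p = 0.240). Over all mice Cyp4f13 and Cyp4f14 were at 0.14 (adjusted p = 0.0905) and 0.36 (adjusted p = 0.0717), and an exact two-sided permutation test on each gene alone gave unadjusted p = 0.00466 and 0.0152. That test was run on each tested member and is given for these 2 only. It pooled both ranges of animal number and used TPM without median-ratio scaling. Of the PPARα targets 7 of 22 were lower at involution over all mice, among them Fabp1, the liver fatty acid binding protein (-0.77), the carnitine carriers Slc22a5 (-0.69) and Slc25a20 (-0.57), and Cpt2 (-0.58). Within the higher range 1 was lower and 1 higher. Of the peroxisomal genes Acot8 passed, lower by -0.50, but was at -0.35 (adjusted p = 0.155) within the higher range. Of the 7 omega-oxidation partners and the 13 PPARs and partners none passed in limma, with 2 and 5 below an unadjusted p of 0.05.

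Involution day 6 against lactation day 10 is the contrast the family was selected on, and its values carry no test. Over all genes 4.73% passed as lower and 18.1% as higher, and among higher-numbered mice alone 3.54% and 10.6%. The log2 difference was -5.19 for Cyp4a14, -5.04 for Cyp4a10, -2.46 for Cyp4a31, -0.60 for Cyp4a32 and -0.42 for Cyp4a12a. It was 0.21 for Cyp4f13, 0.12 for Cyp4v3, 0.08 for Cyp4f14 and 0.04 for Cyp4f15, and the last 3 turn negative under median-ratio scaling of the mice. That scaling moves the median of all genes in this contrast from 0.10 to -0.0049 and the Cyp4a sum from -4.48 to -4.64. As ratios of mean TPM, Cyp4a14 was 70.4-fold, Cyp4a10 43.4-fold and Cyp4a31 7.12-fold lower than in all lactating mice, but 9.08-fold, 11.8-fold and 5.18-fold lower than in the 3 higher-numbered lactating mice. Against those 3 mice Cyp4f15 was 1.45-fold and Cyp4v3 1.29-fold higher at involution, with no overlap between the groups in TPM as deposited. Cyp4v3 values do overlap once divided by the size factors of median-ratio scaling. The share of all genes without overlap was not counted. Kupffer cell markers were higher (6 of 6) and red blood cell markers lower (5 of 5) in the same contrast, also among higher-numbered mice alone.

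In that contrast Por was lower by -0.76 (limma adjusted p = 0.00355), but among higher-numbered mice alone it was at -0.36 (adjusted p = 0.120). The counts below stand beside 4.73% of all genes lower and 18.1% higher over all mice. Among higher-numbered mice alone these shares were 3.54% and 10.6%. Of the 18 peroxisomal genes 7 were lower, including Acot3 (-1.49) and Ehhadh (-1.22), and 3 were higher, Nudt7 (0.76), Crot (0.71) and Scp2 (0.58), but among higher-numbered mice alone 1 was lower and 2 higher. Of the 22 other PPARα targets 9 were lower and 1 higher over all mice, led by Acot1 (-3.42) and Acot2 (-1.51), against 3 lower and 1 higher among higher-numbered mice. Ppard was higher by 1.33 (adjusted p = 0.0349) over all mice and at 0.71 (adjusted p = 0.101) among higher-numbered mice, and Ppara did not pass, with a mean of 24.4 TPM at involution.

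Involution mouse ID6_232 stood apart in the Cyp4a genes. It had the highest value of the 6 for Cyp4a10 (50.2 against a next value of 22.5 TPM), Cyp4a14 (27.7 against 12.6), Cyp4a31 (4.82 against 3.08) and Cyp4a32 (38.9 against 29.0), and its Cyp4a sum was 122 TPM where the others ran from 26.04 to 62.1. It had the highest Cyp4f15 (99.96 TPM) and the lowest Cyp4f14 (230 TPM) of the group as well. Without it the log2 difference of Cyp4a10 from nulliparous was -3.36 (limma adjusted p = 0.0539). Mouse ID6_201 had the lowest Cyp4a10, Cyp4a14 and Cyp4a31.

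The genes whose log2 TPM most resembled that of the Cyp4a sum over the 19 mice, among 11582 genes whose mean reached 1 TPM, were Retsat, the retinol saturase (Pearson r 0.987), Acot1 (0.970), the glutaredoxin Glrx (0.963), Dlst (0.955), Pgrmc1 (0.954), Upb1 (0.948), Acot2 (0.947), Acsf2 (0.946), Aldh1a1 (0.945) and Reep6 (0.944). These points share stage and range of animal number, so they are given as a description. Over deviations from the stage means r was 0.975 for Retsat and 0.958 for Acot1, and over the 13 higher-numbered mice it was 0.953 and 0.916. Retsat had means of 349 and 132 TPM in lower- and higher-numbered nulliparous, 515 and 158 TPM in lactating and 78.6 TPM in involution mice, the same order as the Cyp4a sum but over a smaller span. Among the members the highest correlation was between Cyp4a10 and Cyp4a14 (r 0.948), and Cyp4f15 and Cyp4v3 had r 0.849, while Cyp4a10 and Cyp4f14 had r -0.34.

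17 other entries of the table have a Cyp4 symbol. 8 of them were listed at 0 in every mouse, and 3 had a mean of at least 1 TPM: Cyp4b1 (12.2 TPM), Cyp4f17 (6.09 TPM) and Cyp4f16 (2.02 TPM). Of the 6 tested, Cyp4f16 (log2 difference -0.76) and Cyp4f17 (-0.45) were lower in the higher-numbered mice. Between ranges 9.11% of all genes passed as lower. Cyp4b1 was higher (0.61) and Cyp4f17 lower (-0.39) in involution than in lactation, where 18.1% of all genes passed as higher and 4.73% as lower. Among higher-numbered mice alone neither passed the latter comparison, with Cyp4b1 at 0.28 (limma adjusted p = 0.0881) and Cyp4f17 at -0.07 (adjusted p = 0.734). In the comparisons of lactation and of involution with nulliparous none of the 6 passed in limma, with 1 below an unadjusted p of 0.05 in each. Of all genes, 2.72% passed as higher and 6.49% as lower in lactation, and 3.44% and 0.912% at involution.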

How the data were processed

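Total RNA from flash-frozen liver (caudate lobes) of 19 female mice was made into poly(A)-selected libraries, 1 per mouse. The authors aligned paired-end reads to GRCm38 and deposited gene-level TPM from RSEM 1.3.1 (Ensembl annotation of that build). Reads shared by paralogs are divided by RSEM's estimate, which can move values between Cyp4a genes. The authors tested counts with DESeq2. Here only TPM were used, so limma 3.58.1 (R 4.3.3) with an intensity trend was fitted to log2(TPM + 1) of 16230 genes (mean over the mice 0.1 TPM or more), with 1 mean per stage and Benjamini-Hochberg adjustment. Recovery was tested on simulated data. TPM keep no depth, so no counting error could be given. Groups came from the labels, and ranges of animal number (under 200, 200 and above) from the sample names. All 10 members were named. For the other lists, counts and at most 4 genes with the largest changes, plus Ppara and Rxra, were named. Among peroxisomal genes in the last stage contrast the 3 higher genes were also named, after their values were seen. The members and lists were chosen with earlier results of these data known. Alternatives changed the pseudocount, filter, scaling, moderation, fold threshold, mice and range term. Positions and transcripts are from GENCODE M21 (GRCm38), upstream sequences from RefSeq (GRCm38.p6), and summaries were made in Python 3.11.15 with pandas 2.3.3 and Biopython 1.88.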

Additional observations from a re-analysis of the deposited data

Results flagged for a closer look

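The involution mice were searched, with the other groups, for values far from the rest of their group, which chance gives in about 1 of 20 groups. Among 30 groups of mice, one for each member and stage, 5 such values were found. Mouse ID6_232 had 50.23 TPM of Cyp4a10, where the next value was 22.51, and 27.7 TPM of Cyp4a14, where the next was 12.57. Mouse LAC_133 had 1.45 TPM of Cyp4a12a (next 0.48) and 0.03 TPM of Cyp4a12b (next 0.01), and ID6_201 had 0.03 TPM of Cyp4a12a (next 0.01). The last 2 are too low to be read as expression.

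The lactation difference of Cyp4a10 was larger in mice numbered 200 and above than in those under 200 by 1.33 on the log2 scale (limma interaction, SE 0.20, adjusted p = 0.0292). The mean rose 5.20-fold from 47.3 TPM in the higher range and 2.00-fold from 784 TPM in the lower, and the call was lost in 10 of 13 fits that left out 1 mouse.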

How the results depend on the processing

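With lactation against nulliparous, 1 member passed over all mice, 4 with range as a covariate, 4 in mice numbered 200 and above, and 4 in mice under 200 (the last added after seeing the data). Of all genes, 2.72% passed as higher and 6.49% as lower over all mice, and 5.5% and 10.2% with the covariate. The shares were 2.61% and 4.47% in mice numbered 200 and above, and 1.4% and 1.89% in mice under 200. With involution against nulliparous, 3 members passed over all mice and 1 in mice numbered 200 and above. There 3.44% of all genes passed as higher and 0.912% as lower over all mice, and 0.511% and 0.308% in mice numbered 200 and above. Between ranges, 6 of the 8 tested members other than Cyp4a12a passed, and 3 when a log2 difference of at least 1 was also asked for. Cyp4a12a is left out because it entered the fit through the lower-numbered mice. In that fit 16.5% of all genes passed as higher and 9.11% as lower, and the share at the fold threshold is not given. The interaction passed for 1 member, for 0 without the filter on low values (where 8 and 13 of 26140 genes passed as higher and lower, and 4 members were below an unadjusted p of 0.05 in the filtered limma fit), and for 0 to 1 when single mice were left out. From lactation to involution, 5 members were lower as deposited and 8 after median-ratio scaling, which turned the counts of passing genes from 2936 higher and 767 lower to 1303 and 1352. The log2 difference of the Cyp4a sum was -4.48 over all mice and -2.96 within mice numbered 200 and above.

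Members that did not pass changed sign: lactation against nulliparous, Cyp4a14 to -0.0056 in the higher range, Cyp4a12a to -0.043 with the covariate and between -0.161 and 0.117 with single mice left out, and Cyp4a32 to 0.036 under scaling, 0.011 in the higher range and between -0.249 and 0.154 with single mice left out. Involution against nulliparous turned to 0.14 for Cyp4f15 and 0.0073 for Cyp4v3 with the covariate, and to 0.062 and 0.0496 in the higher range. Cyp4a10 lost its involution call without the filter (adjusted p = 0.0793), under scaling (0.0527), robust moderation (0.0522) or the 2 stages alone (0.0610), and without NUL_1, NUL_4 or NUL_13 or any single involution mouse (0.0539 to 0.0966). Cyp4f14 gained one without NUL_227 (0.0339) or ID6_232 (0.0444). The cause was not tested. Of all values of single members, 492 kept direction and side of the threshold, 20 reversed, 11 came to pass and 15 no longer passed. These counts include the exact permutation tests, where an unadjusted p was held to the threshold of 0.05.

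No paired analysis was possible because the stages share no animal numbers. TPM leave depth unknown, and values among Cyp4a paralogs rest on RSEM's division of reads.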

Other observations

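Lists of sex-biased liver genes, chosen because Cyp4a12a and Cyp4a12b are male-predominant, held genes that differed between ranges of animal number, in a fit where 16.5% of all genes passed as higher and 9.11% as lower. Of 10 male-biased genes 3 were higher in the higher-numbered mice, with Hsd3b5 at a log2 difference of 4.97 and Selenbp2 at 2.28. Slco1a1 was lower (-4.18, limma adjusted p = 5.31e-06). Elovl3 is given by its values alone, since it entered the fit through the lower-numbered mice. Its means were 11.1 and 0.035 TPM in lower- and higher-numbered nulliparous mice, and 2.66 and 0.0167 TPM in lactating mice. Of 12 female-biased genes 4 were lower, led by Sult3a1 (-3.77) and Cyp2b13 (-1.15), and 1 was higher, A1bg (2.46). Neither list moved as a block. In lactation 4 female-biased genes were higher, led by Cyp3a41b (2.82) and Cyp3a41a (2.16), and Cyp2b13 was lower (-1.67), while 3 male-biased genes were lower, including Mup7 (-1.69). Over all genes 2.72% passed as higher and 6.49% as lower. Within the higher range 2 female-biased genes were higher and 1 lower, and no male-biased gene passed in limma (3 were below an unadjusted p of 0.05 over all mice). At involution against nulliparous, Cyp2a4 (1.08) and the male-biased C6 (0.72) were higher, where 3.44% of all genes passed as higher, and Cyp2b13 (-1.23) and Cyp2b10 (-1.01) were lower, where 0.912% did. Within the higher range Cyp2a4 (1.07) and C6 (0.62) still passed and Cyp2b13 (-0.64) and Cyp2b10 (-0.61) did not.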
